A study of Mus musculus with 4 samples.

Results

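The 46 genes described here belong to the Wnt and Hedgehog signalling pathways and were chosen by name, with each symbol matched to a row of the deposited table. All 46 were found among its 22369 genes, and all 46 passed the filter on low values that left 19547 genes for testing. RNA was sequenced from OG2MEF cells at day 9 of reprogramming; these are embryonic fibroblasts of mice with a green fluorescent reporter under Oct4 control. The SOX17-V118M group (2 libraries, called V118M below) was compared with the SOX17 WT group (2 libraries, called WT below). V118M is a missense form of the endodermal transcription factor SOX17 that, per the study's description, binds more cooperatively with OCT4 on a compressed SOX/OCT element and gives SOX17 the ability to induce pluripotency. Per the labels' protocols, retroviruses for Sox2 and Klf4 were given along with one for OCT4, SOX17, its V118M form or GFP, and the medium was then changed to one for mouse embryonic stem cells that held LIF and vitamin C. Which viruses went into each library is not said. The labels also do not name separate cultures for the replicates, and the p-values cover only the variation among these 4 libraries, which may be technical.

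Wnt proteins are secreted lipid-modified ligands that bind Frizzled receptors and the co-receptors LRP5 and LRP6. Binding stops a destruction complex of APC, AXIN and GSK3 from degrading beta-catenin, which then acts with TCF/LEF factors to switch on targets, several of which feed back on the pathway. Hedgehog ligands relieve the inhibition of Smoothened by Patched, and this controls the GLI factors. In mouse embryonic stem cells beta-catenin signalling favours self-renewal, largely by relieving repression by TCF7L1, while in fibroblasts Wnt and Hedgehog signals act in growth and patterning of mesenchyme.

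The deposited values are whole numbers with nearly the same distribution in every library (median 76 in each), so depth is unknown and a value is only a place on a scale shared by the 4 libraries. Sox17, which the viruses carried, was at 3016 and 2396 in V118M against 3484 and 2880 in WT; a gene total does not separate mutant from wild-type transcripts and so does not check the labels. Pou5f1, the gene for OCT4, was at the top value of 61186 in all 4 libraries, while Sox2 was at 4 and 2 in V118M against 2 and 2 in WT, and Klf4 at 29444 and 17589 against 29444 and 29444. The Sox2 and Pou5f1 values go against a reading of the protocol in which each library received the Sox2 virus and OCT4 was an alternative to SOX17. Of the 8 fibroblast markers listed, none was at 0 in all libraries, and their summed value was 101784 and 93843 in V118M against 102001 and 100996 in WT. Much of that sum was Col1a2, at 29492 in all 4 libraries, and Vim, at 19024 and 29480 in each group. The groups did not overlap in 2 of the 8 fibroblast markers (25%), both above WT. These were Pdgfra (460 and 352 against 302 and 248) and Twist2 (506 and 416 against 358 and 393). The sum of 8 pluripotency markers was 339 and 378 against 198 and 284, with Dppa4 at 0 in all 4 libraries and Nanog at 6 and 6 against 1 and 8. The 5 pluripotency markers that passed the filter were higher in V118M in 5 cases, and the 8 leukocyte markers were lower in 7. The groups did not overlap in 2 of these 5 and in 1 of these 8, against 28.0% of all genes tested. The summed values were 272 and 305 against 661 and 417 for 8 leukocyte markers, 17988 and 19886 against 17242 and 16834 for 8 epithelial and keratinocyte markers (2 higher, Krt5 and Krt14, and 6 lower in V118M), and 1179 and 1150 against 1252 and 1329 for 8 endothelial markers, of which Emcn was at 0 in all libraries. Most of the endothelial sum was Tek, at 1054 and 933 in V118M against 1103 and 1172 in WT. The groups did not overlap in 5 of the 8 epithelial and keratinocyte markers (62.5%), 2 above and 3 below WT. Of the 7 endothelial markers that passed the filter, 5 had groups that did not overlap (71.4%), 1 above and 4 below WT. The part of the marked cell types in the results below was not tested. V118M replicate 2 stood apart, with a Pearson correlation of 0.954 to 0.964 with the other libraries over 12661 genes, where the other 3 reached 0.987 to 0.990 with their nearest library. Its deviation from the other libraries ran against transcript length (Spearman's rho -0.581 across genes, which are not independent replicates). The same rho was 0.485 for V118M replicate 1, 0.489 for WT replicate 1 and 0.106 for WT replicate 2. Each of these was taken against the other libraries, V118M replicate 2 included.

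The comparison of V118M with WT asked how the mutation alters expression of the pathway genes during reprogramming. Among the 46 members, the WNT antagonist gene Sfrp2 was higher in V118M, by about 1 log2 unit, and the ligand gene Wnt9a and the feedback gene Axin2 were lower. These were the 3 members with an unadjusted p under 0.05 (limma), which is 6.52% of the members against 4.01% of all 19547 genes tested. Of these 3, 1 was higher and 2 were lower in V118M, where 2.31% of all genes were higher and 1.70% lower at that p. In bulk RNA, fewer cells of a type and less RNA per cell cannot be told apart. None of the members, and 0 of all genes, passed an adjusted p of 0.05, where 784 genes in all had an unadjusted p under 0.05. The groups did not overlap in 13 members, 5 above and 8 below WT, or 28.3%, and in 28.0% of all genes tested (13.2% above and 14.8% below). The median log2 difference of the members, V118M minus WT on the log2(value + 1) scale, was -0.06, beside 0 for all genes tested, with 18 members higher and 28 lower. Without V118M replicate 2 the median was 0.05, with 29 higher and 17 lower.

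**Figure D1:**
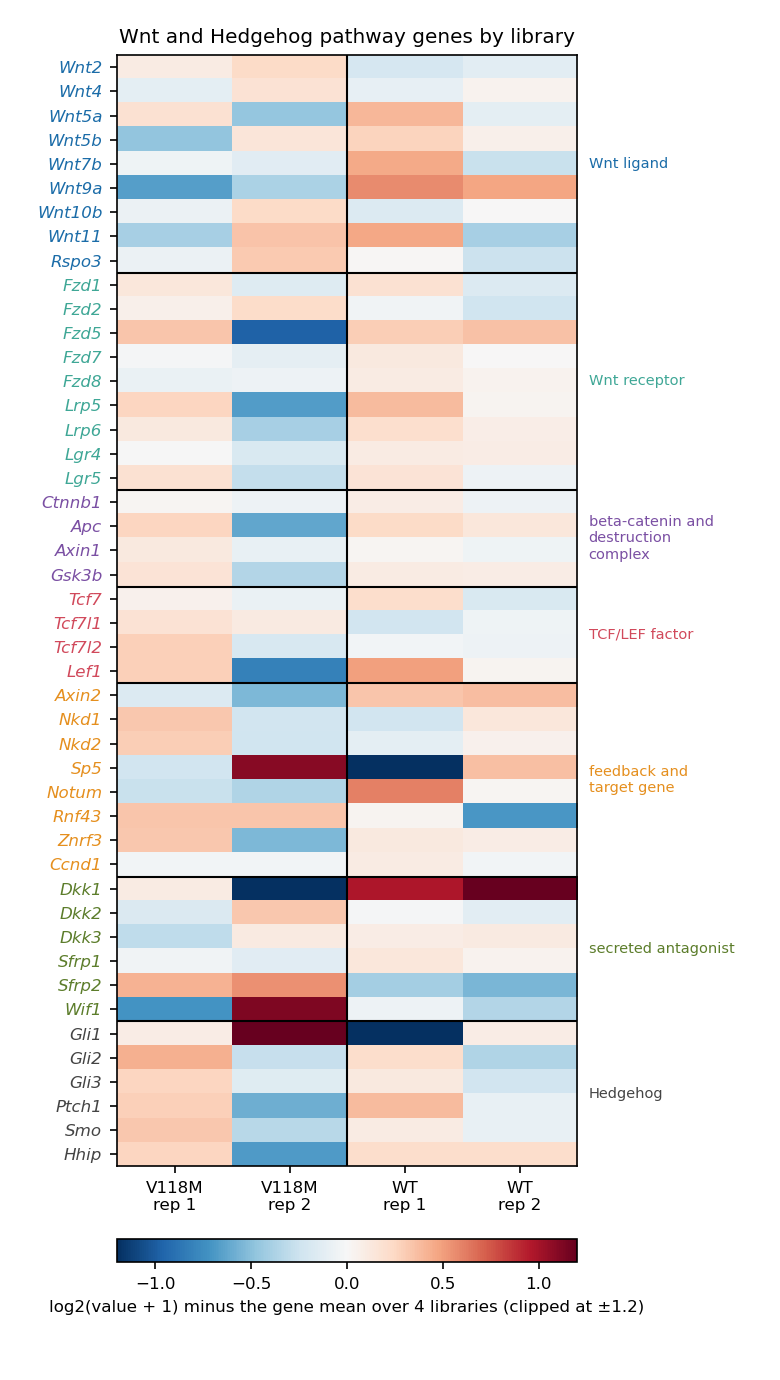
Heat map of the 46 genes, in rows grouped by role, in the 4 libraries, in columns. The colour is log2(value + 1) minus the gene's mean over the 4 libraries, clipped at 1.2 log2 units either way. Sfrp2 is red in both V118M libraries and blue in both WT libraries, Wnt9a and Axin2 show the opposite, and 6 of 9 receptor genes and 3 of 6 Hedgehog genes are lowest in V118M replicate 2.

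Sfrp2 encodes a secreted Frizzled-related protein that binds Wnt ligands outside the cell (ENSMUSG00000027996, chromosome 3, 83766321 to 83774316 in GRCm38). It was at 556 and 610 in the V118M libraries, against 314 and 285 in the WT libraries. Both V118M values lay well above both WT values, and the gap between the groups was larger than that between replicates. The means were 583 ± 38.2 in V118M and 299.5 ± 20.5 in WT (SD, n = 2 each), a log2 difference of 0.96 with a standard error of 0.16 (limma unadjusted p = 0.00144, adjusted p = 0.589). By unadjusted p it was the 47th of the 19547 genes. The difference was between 0.89 and 1.03 when any 1 library was left out, so it did not rest on V118M replicate 2.

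Wnt9a encodes a Wnt ligand with known roles in joint and skeletal development (ENSMUSG00000000126, chromosome 11, 59306928 to 59333552). It was at 78 and 95 in V118M, against 184 and 172 in WT. Again both V118M values lay far from both WT values, this time below them. The means were 86.5 ± 12 in V118M and 178 ± 8.49 in WT (SD, n = 2 each), a log2 difference of -1.04 with a standard error of 0.21 (limma unadjusted p = 0.00371, adjusted p = 0.858). The difference lay between -1.18 and -0.90 with any 1 library left out, so neither V118M library decided it.

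Axin2 encodes a scaffold of the destruction complex and is a widely used direct target of beta-catenin signalling (ENSMUSG00000000142, chromosome 11, 108920349 to 108950783). It was at 326 and 251 in V118M, against 462 and 474 in WT. Both V118M libraries were below both WT libraries, and V118M replicate 2 was the lowest. The means were 288.5 ± 53.0 in V118M and 468 ± 8.49 in WT (SD, n = 2 each), a log2 difference of -0.71 with a standard error of 0.19 (limma unadjusted p = 0.0123, adjusted p = 0.951). Without V118M replicate 2 the difference was -0.52, and without WT replicate 1 or WT replicate 2 the unadjusted p was 0.0834 or 0.0955. Its transcript is 4260 bases long, above the median of 2810 for tested genes, and with the trend on length and GC content removed from each library the difference was -0.62.

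**Figure D2:**
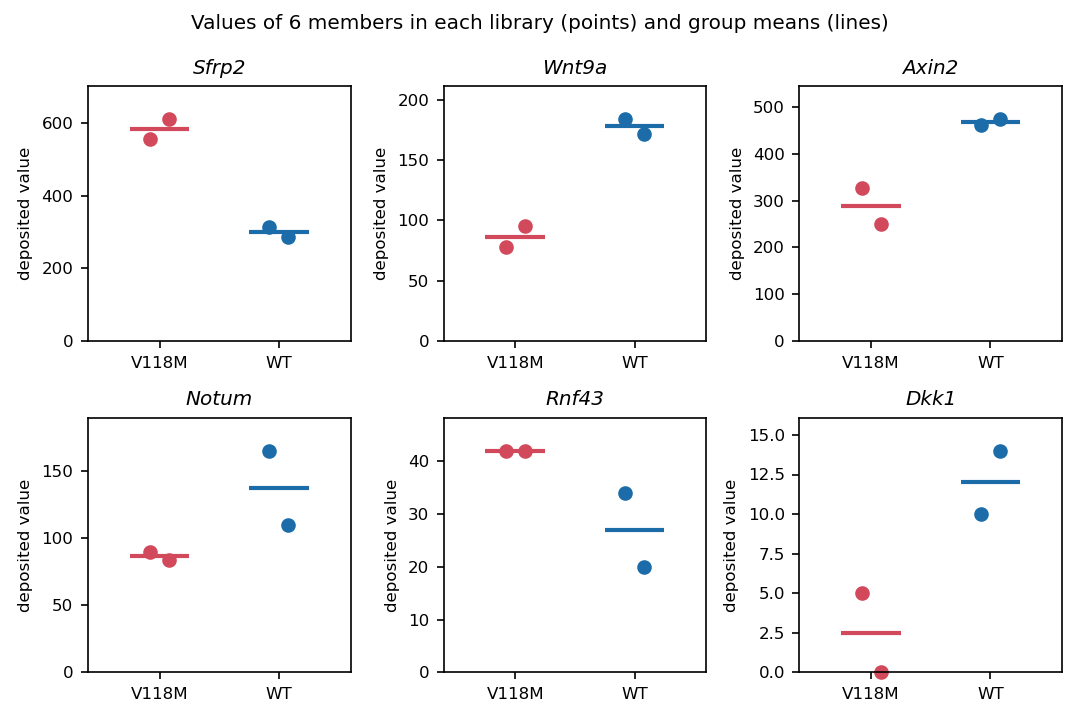
Deposited values of 6 members in each library (points), with V118M at the left and WT at the right of each panel and the group mean as a line; vertical axes start at 0. Sfrp2 is at 556 and 610 against 314 and 285, Wnt9a at 78 and 95 against 184 and 172, and Axin2 at 326 and 251 against 462 and 474, and the groups are also apart in Notum, Rnf43 and Dkk1, where the 2 replicates of 1 group differ more.

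The promoters of Sfrp2, Wnt9a and Axin2 are shown because these genes had the smallest p among the members, and that of Lgr4 because it shares an octamer with Sfrp2. The study's description gives the compressed SOX/OCT element as CATTGTATGCAAAT, in which CATTGT is the SOX part and ATGCAAAT the OCT part, or octamer. Sequences are from RefSeq on build GRCm38.p6 and run from 250 bases before to 50 bases after the annotated start, all on the plus strand. They are chr3:83766071-83766370 for Sfrp2, chr2:109917397-109917696 for Lgr4, chr11:59306680-59306979 for Wnt9a and chr11:108920099-108920398 for Axin2. Capitals mark the octamer, read here as its reverse complement ATTTGCAT.
Sfrp2: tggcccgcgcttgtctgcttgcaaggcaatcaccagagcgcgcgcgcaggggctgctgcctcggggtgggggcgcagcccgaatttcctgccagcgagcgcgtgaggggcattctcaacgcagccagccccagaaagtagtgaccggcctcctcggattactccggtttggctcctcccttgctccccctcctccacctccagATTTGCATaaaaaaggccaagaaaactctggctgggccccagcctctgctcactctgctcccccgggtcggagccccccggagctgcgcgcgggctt
Lgr4: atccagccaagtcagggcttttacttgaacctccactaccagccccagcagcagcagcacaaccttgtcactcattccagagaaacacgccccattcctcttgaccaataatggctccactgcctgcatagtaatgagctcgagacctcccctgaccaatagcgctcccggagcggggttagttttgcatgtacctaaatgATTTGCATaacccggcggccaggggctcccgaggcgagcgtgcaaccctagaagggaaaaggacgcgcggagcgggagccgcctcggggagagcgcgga
Wnt9a: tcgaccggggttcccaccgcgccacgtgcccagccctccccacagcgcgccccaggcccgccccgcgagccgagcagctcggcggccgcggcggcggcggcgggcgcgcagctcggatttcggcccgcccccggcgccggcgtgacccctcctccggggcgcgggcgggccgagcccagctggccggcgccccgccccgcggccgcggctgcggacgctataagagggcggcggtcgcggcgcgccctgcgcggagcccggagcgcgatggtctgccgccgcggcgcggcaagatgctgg
Axin2: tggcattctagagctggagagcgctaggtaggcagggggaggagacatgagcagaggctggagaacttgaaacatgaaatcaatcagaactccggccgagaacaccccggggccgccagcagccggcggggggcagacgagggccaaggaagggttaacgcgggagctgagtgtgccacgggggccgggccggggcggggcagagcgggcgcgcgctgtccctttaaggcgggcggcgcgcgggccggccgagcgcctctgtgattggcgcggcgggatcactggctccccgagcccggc
The octamer begins 47 bases before the start in Sfrp2 and 49 bases before it in Lgr4.

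Of the 46 members, 30 had a promoter in the RefSeq table, with 40 promoters in all. The octamer, searched on both strands, was in 2 of these 40 (5%), those of Sfrp2 and Lgr4, and in 1.74% of 32817 mouse promoters of the same length. Sfrp2 was higher in V118M, while Lgr4, a receptor for R-spondins, was at 666 and 586 in V118M against 716 and 709 in WT. The log2 difference of Lgr4 was -0.19 (standard error 0.15, limma unadjusted p = 0.262). It was -0.09 with the trend on length and GC content removed, so a direction for Lgr4 was not established. The SOX part alone was in 5% of member promoters, those of Lef1 and Tcf7l2, against 12.6% of all promoters. The whole compressed element was in 0 member promoters and 0 of all promoters, as was a form with 1 base between the parts, CATTGTNATGCAAAT. The TCF/LEF core CTTTGA was in 17.5% of member promoters, against 16.0% of all, and was in none of the 4 promoters printed above. These letters describe short windows only, and the SOX part and octamer are parts of the element, so the searches overlap.

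The 9 ligand genes, counting the R-spondin gene Rspo3, whose product raises the level of Wnt receptors at the surface, comprised 4 higher and 5 lower in V118M, with the same counts without V118M replicate 2, and none passed over all genes. Per kilobase of the longest coding transcript, the level was 104 in V118M and 82.7 in WT for Wnt2, 63.5 and 53.3 for Rspo3 and 61.0 and 58.3 for Wnt4. On the same scale Wnt9a was at 26.05 in V118M and 53.6 in WT. Such levels are approximate, since the normalization is unknown and 10 genes share the top value of the scale. Wnt2, which signals through beta-catenin in lung and other organs, was at 224 and 246 in V118M against 182 and 191 in WT. The groups did not overlap, yet the log2 difference of 0.33 (standard error 0.17) had an unadjusted p of 0.111 (limma). Wnt4, a ligand of kidney and gonad development, was at 230 and 282 in V118M against 233 and 256 in WT, with overlapping groups. Wnt5a, the main ligand of signalling independent of beta-catenin in mesenchyme, was at 254 and 162 against 294 and 206, where V118M replicate 2 was lowest and the replicates of each group were far apart. The remaining ligands, Wnt5b, Wnt7b, Wnt10b and Wnt11, lay between 15 and 76 in every library, with overlapping groups in each.

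The 9 receptor genes were lower in V118M in 8 and higher in 1, and none had an unadjusted p under 0.05. Without V118M replicate 2, 4 were lower and 5 higher. Fzd2, a Frizzled receptor of mesenchymal cells, was the exception, at 738 and 820 in V118M against 686 and 596 in WT (log2 difference 0.28, standard error 0.16). Both V118M values were above both WT values, by less than 0.5 log2 units. Fzd7, a Frizzled that serves in self-renewal of stem cells, was at 1398 and 1311 in V118M against 1536 and 1423 in WT, and the groups also did not overlap in Fzd8 (67 and 68 against 76 and 73) or Lgr4. The differences in these 3 were 0.19 log2 units or less in size. The co-receptor gene Lrp6 was at 1936 and 1360 in V118M against 2052 and 1888 in WT. Lrp5 was at 1812 and 957 in V118M against 1978 and 1557 in WT. Fzd5, a Frizzled of epithelia, was at 290 and 117 in V118M against 284 and 294 in WT. In each of these 3, V118M replicate 2 was far below the other libraries, and V118M replicate 1 was within the range of WT. Without V118M replicate 2 the log2 difference was -0.02 for Lrp6, 0.05 for Lrp5 and 0.01 for Fzd5. Fzd1 and Lgr5 had overlapping groups.

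In the group of beta-catenin and its destruction complex, 3 of 4 genes were lower and none passed. No gene had groups that did not overlap, against 28.0% of all genes tested, which says little with 4 genes. Without V118M replicate 2, 0 of the 4 were lower. Ctnnb1, the gene for beta-catenin, was at 9537 and 9004 in V118M against 9960 and 9004 in WT, near the top of the scale, where steps are coarse and values tie. Apc, a scaffold of the complex, was at 1736 and 942 in V118M against 1702 and 1590 in WT, and Gsk3b, its kinase, was at 4129 and 2900 against 3954 and 3913. V118M replicate 2 was again the low library in both. Axin1, the constitutive counterpart of Axin2, was at 886 and 766 in V118M against 832 and 788 in WT, with overlapping groups and a log2 difference of 0.02 (standard error 0.15), which was between -0.08 and 0.13 with any 1 library left out.

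The 4 TCF/LEF genes comprised 2 higher and 2 lower in V118M, and without V118M replicate 2 all 4 were higher. Tcf7l1, whose product mostly represses and restrains pluripotency genes in mouse embryonic stem cells, was at 680 and 650 in V118M against 514 and 584 in WT. The groups did not overlap, and the log2 difference was 0.28 (standard error 0.15, limma unadjusted p = 0.125, adjusted p = 0.951). It lay between 0.19 and 0.37 with any 1 library left out. Tcf7, at 330 and 301 in V118M against 369 and 280 in WT, and Tcf7l2, at 682 and 489 against 549 and 538, had overlapping groups. Lef1, which activates targets with beta-catenin, was low on the scale, at 31 and 14 in V118M against 36 and 26 in WT, with the lowest value in V118M replicate 2.

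Counting Axin2, the feedback and target genes gave no common direction, with 4 of the 8 higher and 4 lower (5 and 3 without V118M replicate 2). Notum encodes an enzyme that removes the lipid from Wnt proteins. It was at 90 and 84 in V118M against 165 and 110 in WT. The groups did not overlap, but the WT replicates differed from each other by more than the distance of the nearer one to V118M (log2 difference -0.63, standard error 0.27, limma unadjusted p = 0.0643), which was -0.34 without WT replicate 1. Rnf43 encodes a ubiquitin ligase that clears Frizzled receptors. It was at 42 and 42 in V118M against 34 and 20 in WT, so V118M was above WT (log2 difference 0.67, standard error 0.37, limma unadjusted p = 0.131). The difference was 1.03 without WT replicate 1 and 0.30 without WT replicate 2. Its relative Znrf3 was at 432 and 236 in V118M against 374 and 367 in WT, with V118M replicate 2 lowest. Nkd1 and Nkd2, which encode binders of Dishevelled, had overlapping groups between 16 and 64. The zinc finger gene Sp5, a target with strong activity in stem cells, was at 1 and 4 in V118M against 0 and 2 in WT, at the bottom of the scale. Ccnd1, the gene for cyclin D1, was at 9519 and 9519 in V118M against 10437 and 9519 in WT, a tie of 3 libraries. Members described in each library beyond the rule stated under the processing, such as Notum, Rnf43, Wnt2, Fzd5, Lrp5 and Dkk1, were chosen after their values were seen.

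**Figure D3:**
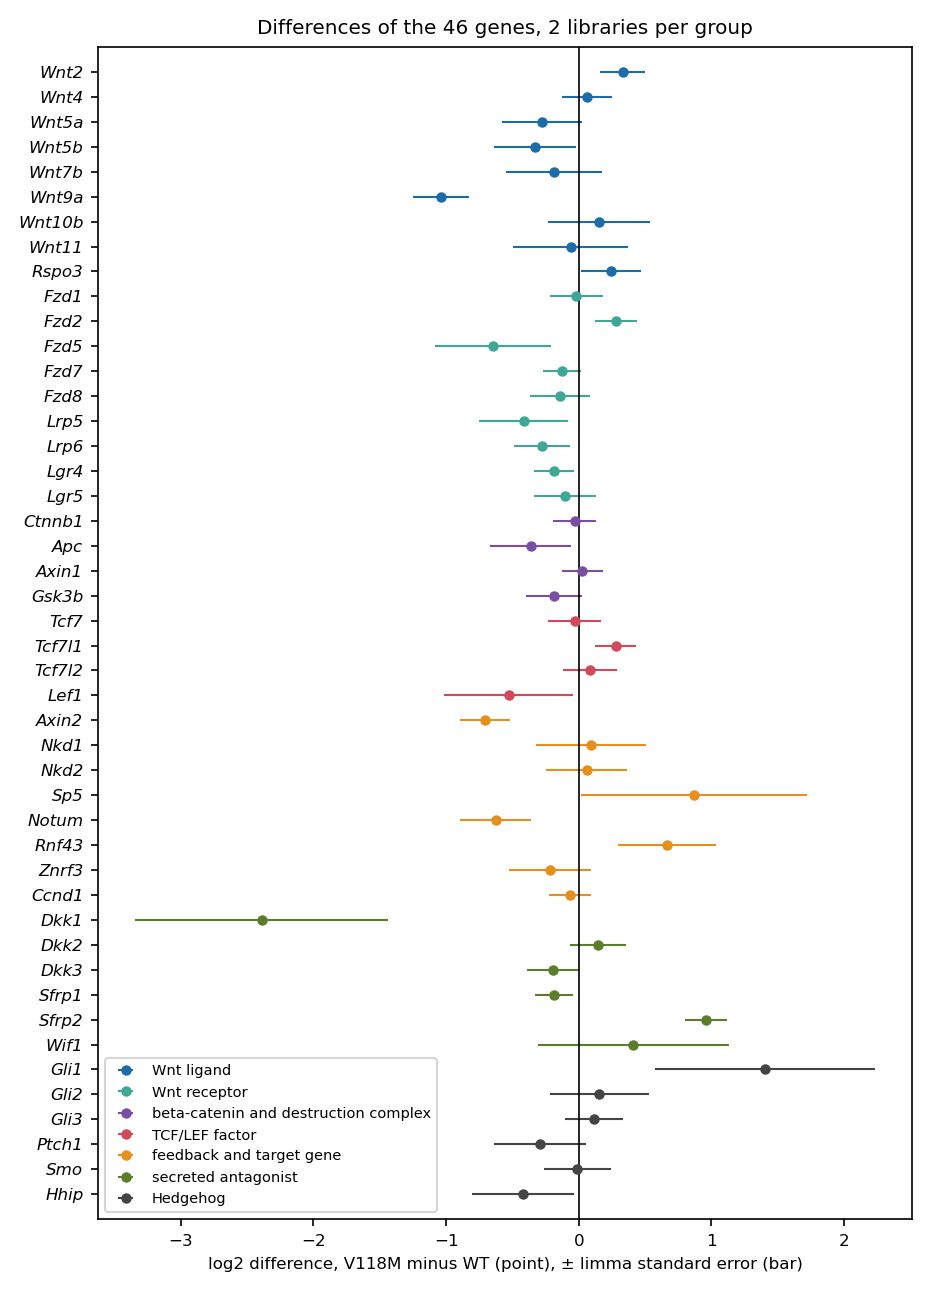
Log2 difference of each of the 46 genes, V118M minus WT (points), with the limma standard error as a bar, coloured by role. Sfrp2 at 0.96, Wnt9a at -1.04 and Axin2 at -0.71 lie several standard errors from 0, while the large differences of Dkk1 (-2.39), Gli1 (1.40) and Sp5 (0.87) have standard errors of 0.95, 0.83 and 0.85.

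The 6 secreted antagonist genes, counting Sfrp2, split into 3 higher and 3 lower in V118M. Without V118M replicate 2, Sfrp2 was the 1 higher gene and the other 5 were lower. Sfrp1, the closest relative of Sfrp2 in the list, was at 578 and 542 in V118M against 658 and 616 in WT, so it ran opposite to Sfrp2 with a log2 difference of -0.19 (standard error 0.15). Dkk2 was at 598 and 848 in V118M against 669 and 618 in WT, and Dkk3 at 292 and 391 against 385 and 389. In each of these Dickkopf genes the V118M libraries lay on either side of WT, or the groups overlapped. Dkk1, the founding Dickkopf gene, which encodes a blocker of LRP5 and LRP6 and is itself a target of beta-catenin, was at 5 and 0 in V118M against 10 and 14 in WT. Its log2 difference of -2.39 (standard error 0.95, limma unadjusted p = 0.0526) rested on values near the bottom of the scale and was -1.10 with V118M replicate 2 left out and -3.68 with V118M replicate 1 left out. Wif1, which encodes another Wnt-binding inhibitor, was at 6 and 24 against 10 and 8, with groups that overlapped.

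No Hedgehog gene had groups that did not overlap, against 28.0% of all genes tested, which says little with 6 genes. Of the 6, 3 were higher and 3 lower in V118M, where all 6 were higher without V118M replicate 2. Gli1, the GLI factor that is switched on by the pathway and used as its readout, was at 2 and 6 in V118M against 0 and 2 in WT, near the bottom of the scale. Its log2 difference of 1.40 had a standard error of 0.83 (limma unadjusted p = 0.150) and was 0.61 without WT replicate 1 and 2.20 without WT replicate 2. Smo, the gene for Smoothened, was at 1362 and 862 in V118M against 1163 and 1026 in WT, with the V118M libraries on either side of WT. Ptch1, the gene for Patched and a second readout, was at 352 and 192 in V118M against 376 and 270 in WT. Hhip, which encodes a decoy for Hedgehog ligands, was at 62 and 32 in V118M against 60 and 60 in WT. In Smo, Ptch1 and Hhip, V118M replicate 2 was the lowest library. Gli2, which mostly activates targets, was at 77 and 47 in V118M against 66 and 44 in WT. Gli3, which mostly represses them, was at 536 and 404 in V118M against 484 and 380 in WT. In both, replicate 2 was the lower one in each group.

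The position of V118M replicate 2 recurred across members. It was below the other 3 libraries in 21 of 46 members (45.7%), against 32.7% of all genes tested. Among transcripts above the median length of 2810 bases, the share was 51.4% of 37 members and 50.3% of all genes, and at or below that length it was 22.2% of 9 members and 15.3% of all genes. The replicates of V118M differed by a median of 0.44 log2 units over the members, where those of WT differed by 0.17 (0.44 and 0.17 over all genes tested). Of the 13 members with a transcript over 5000 bases (Apc, Fzd5, Fzd8, Gli2, Gli3, Gsk3b, Hhip, Lgr4, Lrp5, Lrp6, Ptch1, Wnt5a and Znrf3), 13 were below the WT mean in V118M replicate 2 and 3 in V118M replicate 1. Of all 3386 tested genes of that length, 2585 (76.3%) were below the WT mean in V118M replicate 2 and 1333 in V118M replicate 1. The median difference of these 13 members from the WT mean was 0.05 in V118M replicate 1 and -0.60 in V118M replicate 2, against 0.05 and -0.32 for all genes of that length. With the trend on length and GC content removed, 22 members were higher and 24 lower, and the members' median difference was -0.01.

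**Figure D4:**
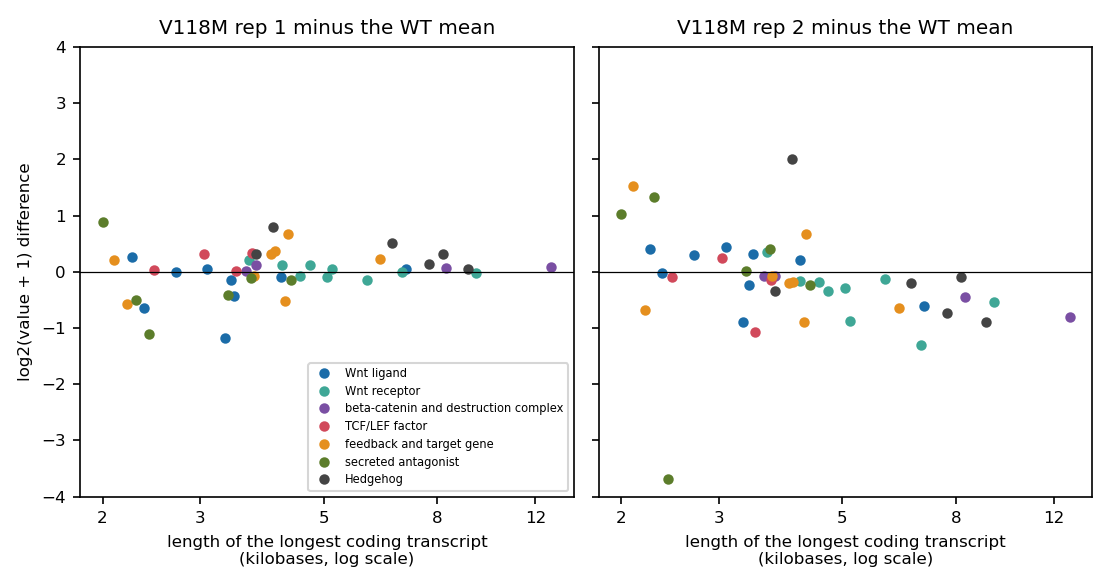
Difference of V118M replicate 1 (left) and replicate 2 (right) from the mean of the WT libraries, in log2(value + 1), against the length of each gene's longest coding transcript in kilobases on a log axis; each point is a member coloured by role. In V118M replicate 2 all 13 members over 5000 bases lie below 0, with a median of -0.60, while in V118M replicate 1 these members scatter about a median of 0.05; the point at -3.68 is Dkk1, at 0 in that library.

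**Figure D5:**
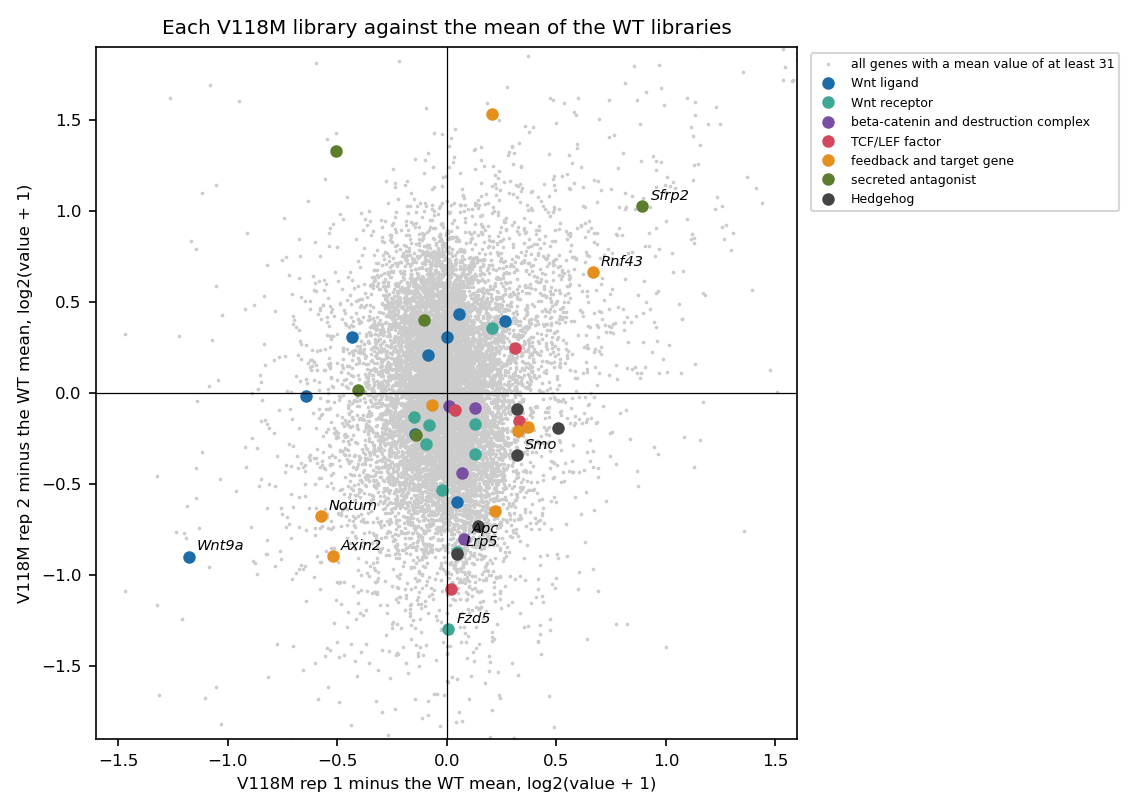
Difference of each V118M library from the mean of the WT libraries, replicate 1 on the horizontal and replicate 2 on the vertical axis, for the members (coloured by role) and for all genes with a mean value of at least 31 (grey); both axes share the WT mean, and Dkk1 and Gli1 fall outside the range shown. Sfrp2 and Rnf43 are above 0 and Wnt9a, Axin2 and Notum below 0 in both V118M libraries, while Fzd5, Lrp5 and Apc lie near 0 on the horizontal axis and below 0 on the vertical one.

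Further genes of the pathways were listed by name, and 95 of 102 symbols matched a row, of which 84 passed the filter. None of the 84 passed over all genes tested, and 6 had an unadjusted p under 0.05 (7.14%, against 4.01% of all genes). Of these 6, 3 were higher and 3 lower in V118M. The Hedgehog gene Scube2, 1 of the 3 higher ones, was at 0 in both WT libraries. It passed the filter through its V118M values alone, so its own difference admitted it to the count. Among the lower ones, Wnt7a, a ligand gene, was at 279 and 227 in V118M against 392 and 328 in WT. Porcn, which encodes the acyltransferase that adds the lipid all Wnt ligands need, was at 170 and 154 in V118M against 218 and 232 in WT. Kif7, the gene for a ciliary kinesin that regulates GLI proteins, was at 165 and 150 in V118M against 220 and 214 in WT. In these 3 genes both V118M libraries were below both WT libraries, with log2 differences of -0.51, -0.47 and -0.46.

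Among the higher ones, Trabd2b, which encodes a membrane protease that inactivates Wnt ligands, was at 132 and 154 in V118M against 102 and 78 in WT. Gas1, the gene for a Hedgehog co-receptor, was at 482 and 561 in V118M against 385 and 357 in WT. Both had groups that did not overlap, with log2 differences of 0.67 and 0.49 (limma unadjusted p = 0.0347 and 0.0285, adjusted p = 0.951 each). Scube2, whose product helps release Hedgehog ligands, was at 2 and 4 in V118M and was listed at 0 in both WT libraries. The 84 genes had a median log2 difference of -0.11, with 29 higher and 51 lower, and V118M replicate 2 was the lowest library in 49 of them (58.3%, against 32.7% of all genes tested). Their median transcript length was 4189.5 bases, against 2810 for all genes tested. That library was the lowest in 50.3% of all genes above 2810 bases and in 66.7% of those over 5000 bases. Without V118M replicate 2 the median log2 difference was 0.08, with 47 higher and 32 lower of the 81 genes that still passed the filter.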

How the data were processed

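The authors deposited 1 table with a normalized score per gene and library, rounded to whole numbers, which are not raw reads. Sorted columns held the same score at 76.7% of ranks and totals ran from 12855482 to 12859613, as quantile normalization gives, though no source used here names the normalization. Per the submitters' processing notes, mm10, FastQC, RSEM, Bowtie2 and DESeq2 were used, without versions or roles, and per the labels' protocols TRIzol served for RNA and a TruSeq Nano kit for the libraries. Depth is unknown, so no counting intervals are given.

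Values were transformed as log2(value + 1), which understates differences of low genes. A gene was tested where 2 or more libraries had a value of 1 or higher. limma 3.58.1 in R 4.3.3 (trend and robust options, group as the only term) was fitted to all 4 libraries and checked on simulated data; its p-values are two-sided and adjusted by Benjamini-Hochberg across the 19547 genes. An exact permutation test of 2 against 2 libraries cannot go below p = 0.333 and was not used. Coordinates are from GENCODE M21 (GRCm38, also called mm10). Lengths are of the longest coding transcript of each gene, since the transcript named in the table is short for some members (364 bases for Ctnnb1). No source used here says whether strand was used in counting, so overlapping genes may share reads. Alternatives were other pseudocounts and filters, a replicate block, removal of a length and GC trend, array weights, and each library left out. Values are given in every library for members with an adjusted or unadjusted p under 0.05, and in each role for the member with the smallest p and that with the highest mean value. Of the other pathway genes, those with an unadjusted p under 0.05 are named. Members and lists were chosen with earlier results of these data known.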

Additional observations from a re-analysis of the deposited data

How the results depend on the processing

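In every alternative run, 0 members passed an adjusted p of 0.05, and over 35 genes refitted under each alternative that could be run, 391 differences kept their sign and side of the threshold while 24 changed sign or became 0. The lowest adjusted p of any of these in any alternative was 0.120, and Sfrp2, Wnt9a and Axin2 kept their direction throughout. Replicate numbers are shared by the groups, but the labels do not say what they stand for, and there are only 2 pairs. Deviations of same-numbered libraries from their group means correlated positively, at 0.303 across genes, which are not independent replicates. Whether the libraries were paired was not tested. With the replicate block, 3 of all genes passed, 1204 genes and 5 members had an unadjusted p under 0.05, and with the replicate block and the length and GC trend removed these were 22, 1427 and 5. With any 1 library left out, 0 genes passed, the genes with an unadjusted p under 0.05 numbered 221 (without WT replicate 1) to 5096 (without V118M replicate 1) and the members 2 to 11, and the lone library of a group is then assumed to vary like the other group. The members' median difference was then -0.19 to 0.05 and the members higher in V118M were 14 to 29 (29 without V118M replicate 2). With pseudocounts of 0.1 and 5 the difference was -4.06 and -1.25 for Dkk1, 2.96 and 0.57 for Gli1, and 2.21 and 0.31 for Sp5. With any 1 library left out, Sp5 was at 0.08 to 1.66, Notum at -0.92 to -0.34, Lrp6 at -0.53 to -0.02, Fzd2 at 0.18 to 0.38, and Fzd7 at -0.18 to -0.07.

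Among the 35 refitted genes, with the length and GC trend removed, with or without the block, the sign changed for Ctnnb1 (0.039), Ccnd1 (0.008) and Smo (0.052). Fzd1, a member not refitted, also changed sign with the trend removed, from -0.019 to 0.062. Over the fits that left out 1 library, the range was -0.086 to 0.207 for Wnt4, -0.104 to 0.041 for Ctnnb1, -0.080 to 0.130 for Axin1, -0.804 to 0.078 for Apc, -0.133 to 0 for Ccnd1, -0.104 to 0.399 for Dkk2, -0.341 to 0.318 for Smo, -0.600 to 0.045 for Wnt5a, -1.297 to 0.005 for Fzd5, -0.874 to 0.046 for Lrp5, -1.075 to 0.018 for Lef1, -0.728 to 0.143 for Ptch1 and -0.086 to 0.321 for Gli3. The cause was not tested. Among the 35 refitted genes, the sign changed without V118M replicate 2 for Apc, Ctnnb1, Lrp5, Fzd5, Lef1, Ptch1, Wnt4, Wnt5a, Dkk2 and Smo. Of the members not refitted, Fzd1, Lgr5, Gsk3b, Tcf7, Znrf3, Hhip and Wif1 also changed sign without that library. Without that library, an alternative chosen after seeing the data for the counts by role, the genes lower in V118M numbered 4 receptors, 0 of the destruction complex group, 0 TCF/LEF factors, 5 antagonists, 0 Hedgehog genes and 32 other pathway genes. Each group has 2 libraries of unknown depth, which limits what could be detected, and values under about 10, as for Dkk1, Gli1, Sp5 and Scube2, rest on the lowest steps of the scale.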
